A study of Homo sapiens with 2 samples.

Results

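The antisense RNAs described here are the genes whose symbol ends in -AS and 1 digit and whose mean FPKM over the 2 libraries was at least 1. FPKM is a level already divided by transcript length and by the size of the library. Of 719 such symbols, EPB41L4A-AS1, a host of a small nucleolar RNA, was left out, and of the other 718, 199 (27.7%) reached the level. They were 1.66% of the 11961 tested genes, drawn from 25268 symbols by the same limit, short RNA genes left out. A further 240 antisense symbols stood at 0 in both libraries and 279 lay between 0 and the limit. The 199 members were thus selected on their symbol and their mean level, so their being expressed is no result. Just inside the limit lay DLGAP1-AS1 (0.672 FPKM in DMSO and 1.36 in Indocin), HOXB-AS3 (0.853 and 1.18) and RAB6C-AS1 (0.931 and 1.15). Just outside it lay P4HA2-AS1 (1.04 and 0.961), TPT1-AS1 (0.9504 and 1.032) and PEG3-AS1 (0.8499 and 1.102).

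Both libraries came from C4-2B MDVR, a human castration-resistant prostate cancer line that resists enzalutamide, an antiandrogen drug, and that was kept in 20 uM enzalutamide. In the Indocin library the cells had received 20 uM Indocin for 3 days. Indocin is a trade name of indomethacin, a cyclooxygenase inhibitor. In the DMSO library they had received the solvent alone for 3 days. Each group was 1 library from 1 line, so no difference between them has a replicate error, no test was possible, and values are compared as those of 2 libraries. All 10 luminal prostate markers, among them KLK3 and KRT8, stood at 58.1 FPKM or more in both libraries. All 3 basal and all 3 endothelial markers were under 1 FPKM, PTPRC and CD3E were at or near 0, COL1A1 stood at 4.54 FPKM in DMSO and 4.80 in Indocin, and CD68 at 6.51 and 5.86.

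A natural antisense RNA is transcribed from the strand opposite to another gene, here called the sense gene and read from the part of the symbol before -AS. Many start close to the sense gene's own start and run away from it, as divergent transcripts. Others run through the sense gene's exons and can pair with its messenger RNA. Individual antisense RNAs are known to hold chromatin modifiers at the sense promoter, to stabilise or mask the sense messenger, or to bind microRNAs, and many have no known role.

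The arrangement of each pair was read from reference sequences, in a 300-base window from 250 bases before to 50 bases after the annotated start (RefSeq, GRCh38.p14). A window was found for 158 members, and for 148 pairs both the antisense and the sense window were found. In 48 of the 148 pairs (32.4%) the 2 windows shared bases as reverse complements, over 26 to 293 bases with a median of 194. The shared stretch need not hold the start itself. A pair whose windows share none can still have close starts in other gene models. The windows below belong to members on which the results turn. The capitals mark the bases shared with the sense gene's window. VLDLR-AS1, the member with the highest ratio, shares none. The others share from 86 to 293 bases.
VLDLR-AS1, chr9:2622324-2622623, minus strand: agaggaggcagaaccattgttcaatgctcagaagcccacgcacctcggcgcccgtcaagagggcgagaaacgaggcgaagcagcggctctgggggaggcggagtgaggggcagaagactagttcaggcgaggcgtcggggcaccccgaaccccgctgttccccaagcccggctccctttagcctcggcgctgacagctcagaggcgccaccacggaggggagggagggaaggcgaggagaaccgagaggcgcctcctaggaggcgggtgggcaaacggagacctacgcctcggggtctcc
TAF1A-AS1, chr1:222589670-222589969, plus strand: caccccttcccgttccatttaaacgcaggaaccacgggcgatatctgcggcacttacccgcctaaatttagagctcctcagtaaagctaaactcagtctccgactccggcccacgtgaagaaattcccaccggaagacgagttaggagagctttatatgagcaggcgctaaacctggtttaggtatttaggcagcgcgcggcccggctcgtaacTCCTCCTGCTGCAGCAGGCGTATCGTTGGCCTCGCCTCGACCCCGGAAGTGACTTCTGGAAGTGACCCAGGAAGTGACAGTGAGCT
RASSF1-AS1, chr3:50337261-50337560, plus strand: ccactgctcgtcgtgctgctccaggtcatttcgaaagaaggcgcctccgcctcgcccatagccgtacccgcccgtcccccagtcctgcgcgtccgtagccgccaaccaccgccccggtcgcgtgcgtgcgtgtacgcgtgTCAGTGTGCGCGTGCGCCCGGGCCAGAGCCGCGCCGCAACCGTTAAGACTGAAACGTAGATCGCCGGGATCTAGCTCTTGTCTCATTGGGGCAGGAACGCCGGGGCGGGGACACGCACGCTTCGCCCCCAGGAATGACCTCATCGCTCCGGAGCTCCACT
DICER1-AS1, chr14:95157438-95157737, plus strand: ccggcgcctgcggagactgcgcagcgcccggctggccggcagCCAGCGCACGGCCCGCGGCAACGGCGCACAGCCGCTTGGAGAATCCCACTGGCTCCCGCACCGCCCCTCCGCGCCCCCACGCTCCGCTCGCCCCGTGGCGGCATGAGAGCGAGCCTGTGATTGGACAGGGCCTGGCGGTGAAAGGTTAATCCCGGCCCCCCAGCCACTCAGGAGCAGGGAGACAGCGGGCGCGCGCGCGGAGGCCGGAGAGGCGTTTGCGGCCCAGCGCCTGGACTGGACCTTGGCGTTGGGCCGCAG
GTSE1-AS1, chr22:46296611-46296910, minus strand: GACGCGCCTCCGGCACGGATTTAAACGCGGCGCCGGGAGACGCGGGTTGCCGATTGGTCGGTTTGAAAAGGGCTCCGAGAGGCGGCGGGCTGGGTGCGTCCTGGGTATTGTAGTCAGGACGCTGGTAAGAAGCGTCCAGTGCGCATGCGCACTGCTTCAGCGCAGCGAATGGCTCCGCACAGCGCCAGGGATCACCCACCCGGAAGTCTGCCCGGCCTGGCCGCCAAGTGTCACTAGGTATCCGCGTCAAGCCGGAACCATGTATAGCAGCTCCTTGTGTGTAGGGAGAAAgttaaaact
MNX1-AS1, chr7:157010607-157010906, plus strand: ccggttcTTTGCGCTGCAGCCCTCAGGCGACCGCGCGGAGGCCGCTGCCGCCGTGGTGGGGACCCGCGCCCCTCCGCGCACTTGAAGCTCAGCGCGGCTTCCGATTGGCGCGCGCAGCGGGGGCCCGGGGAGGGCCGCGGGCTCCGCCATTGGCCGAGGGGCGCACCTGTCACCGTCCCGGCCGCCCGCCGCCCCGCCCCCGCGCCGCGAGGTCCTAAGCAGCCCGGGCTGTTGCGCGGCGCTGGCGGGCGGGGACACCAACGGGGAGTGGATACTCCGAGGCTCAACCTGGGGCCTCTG

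The members' windows were rich in G and C, with a median of 67.5% against 58.3% over all 27305 windows. No such median was taken over the windows of tested genes or of the sense genes. The richness is therefore not shown to be particular to the members. The letters TGATGNAA, which C/EBP-ATF dimers can bind, were found on either strand in 1 of 158 members' windows (0.633%), against 3.67% of all windows and 1.60% of those of tested genes. CCAAT, which NF-Y binds, was in 53 (33.5%), against 35.7% and 37.5%, among them the windows of RASSF1-AS1, DICER1-AS1, GTSE1-AS1 and MNX1-AS1 above. CACGTG, the E-box, was in 21 (13.3%), against 7.43% and 10.7%, among them that of TAF1A-AS1. The motifs were counted separately and a match may overlap another motif. A match describes the letters only.

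Most members were weakly expressed. Their median mean level was 3.58 FPKM, against 12.4 over all tested genes and 14.8 over the 175 sense genes that were themselves tested. Only 40 of the 199 reached 10 FPKM, and 62 lay under 2. LRRC75A-AS1, listed today as the small nucleolar RNA host SNHG29, stood far above the rest with 628.6 FPKM in DMSO and 691.2 in Indocin. It made up 28.6% and 30.6% of the members' summed FPKM. The sum was 2195 FPKM in DMSO and 2262 in Indocin with it, and 1566 and 1571 without it, so the total of the other members was nearly equal in the 2 libraries.

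The next most abundant members were a mixed group. PCNA-AS1, opposite the gene of the replication clamp, stood at 175 FPKM in DMSO and 129 in Indocin, and its annotated span is short, at 384 bases. MMP24-AS1 stood at 80.7 and 86.8, FAM83H-AS1 at 49.1 and 51.1, FBXO22-AS1 at 45.2 and 46.9, and NCBP2-AS2 at 47.6 and 39.1. FGD5-AS1 (43.3 and 42.3), ST8SIA6-AS1 (33.6 and 42.1) and ELFN1-AS1 (37.5 and 30.9) were also among the 10 highest. Not all of them are noncoding under today's names. RefSeq listed 145 members under the same symbol and 53 under a newer one, and it had no record for FBXO22-AS1. Of the 53, 31 are now named divergent transcripts (-DT), such as GTSE1-AS1. By type, 189 were long noncoding RNAs, 3 transcribed pseudogenes and 6 protein-coding genes, among them MMP24-AS1 (MMP24OS), FAM83H-AS1 (IQANK1) and NCBP2-AS2 (NCBP2AS2). The 6 also hold HNRNPU-AS1, whose name led to the record of HNRNPU, its own sense gene. Its listed type is therefore that of the sense gene.

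Against their sense genes, 140 members had the lower FPKM in both libraries and 49 the higher, of 195 with a row for the sense gene. FGD5-AS1, ST8SIA6-AS1 and MMP24-AS1 stood above 33 FPKM in both libraries over sense genes under 1 FPKM in both. At the other end, ENO1-AS1 had 2.63 and 3.95 FPKM opposite ENO1, a glycolytic enzyme, at 1029 and 879. The other 6 pairs changed order. C8orf37-AS1 passed from below C8orf37 to above it, and TAF1A-AS1, OIP5-AS1, FAM222A-AS1 and FRMD6-AS1 did the same, whereas MCF2L-AS1 passed from above MCF2L (4.74 against 3.65 FPKM in DMSO) to just below it (4.42 against 4.48 in Indocin). These 6 were picked out after their values were seen.

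**Figure D1:**
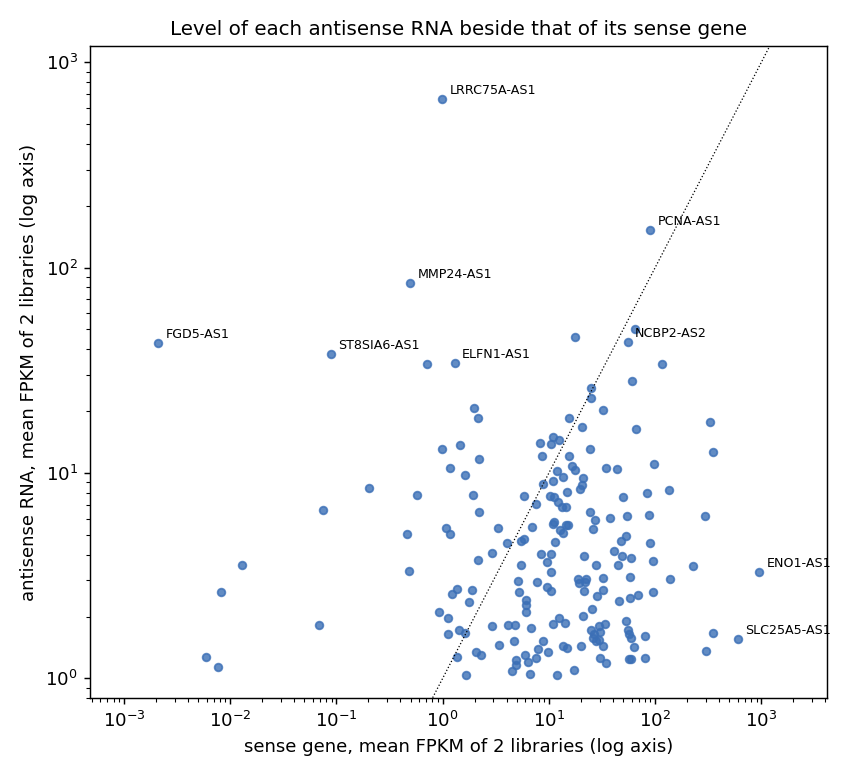
Mean FPKM of each antisense RNA (vertical, log axis) against the mean FPKM of its sense gene (horizontal, log axis), over the 2 libraries, 1 point per pair; sense genes at 0 in both libraries cannot be drawn. The dotted line marks equal levels, and most points lie below it, with LRRC75A-AS1, MMP24-AS1 and FGD5-AS1 far above it.

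The question the design poses is which genes stood at another level after Indocin. Differences are given as the log2 of (Indocin FPKM + 1)/(DMSO FPKM + 1), which understates the difference of weak genes, and a gene past 1.5-fold on that scale is counted. By this count 6 members were higher in the Indocin library and 0 lower. Of all members, 12 lay under 1 FPKM in DMSO and at 1 or more in Indocin, and 0 the other way round. These 12, with VLDLR-AS1 and NEBL-AS1 of the 6 among them, reached the mean limit only through the Indocin library. Their higher value there follows from the limit, so its direction is no result. No such count was taken over other genes of like level, so 12 against 0 is not shown to be particular to the members. Over all tested genes 2.19% were higher and 0.752% lower. Among the 5003 other genes with a mean of 1 to 10 FPKM, the range of all 6, the shares were 2.78% and 0.7%. The members' count, 6 of 199, lay near this background with the added 1 FPKM, and it moved with the setting. With 0.1 FPKM added it was 22 of 199, against 3.51% of all tested genes, and after scaling to a common upper quartile 10 of 199, against 2.68%. For these 2 settings no share among genes of like level was computed. The members are weaker than most tested genes, so these counts do not show that they differ from other weak genes. In these bulk libraries, a change in the number of cells of a state and a change of RNA per cell cannot be told apart.

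VLDLR-AS1 had the highest ratio. It stood at 0.0347 FPKM in DMSO and 2.06 in Indocin, a log2 ratio of 1.57, and it was the 1 member past 2-fold, as were 0.752% of all tested genes. Past 2-fold lower were 0 members and 0.0418% of all tested genes. Its level in DMSO corresponds to about 1.18 fragments by the depth estimate and that in Indocin to about 69.3. The ratio of the FPKM was 59.3, with an exact 95% interval from 12.1 to 2801 for counting error alone. VLDLR, the very low density lipoprotein receptor, which takes up triglyceride-rich lipoproteins, stood at 4.11 FPKM in DMSO and 9.04 in Indocin (log2 0.98). Both members of this pair were higher in the Indocin library, and it is the only measured pair in which both were past 1.5-fold. Their annotated exons overlap by 738 bases (GENCODE 29).

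NEBL-AS1 stood at 0.447 FPKM in DMSO and 1.73 in Indocin (log2 0.92), opposite NEBL, which encodes the actin-binding protein nebulette, at 3.67 and 5.39 (0.45). C8orf37-AS1 stood at 1.56 and 3.80 (0.91), whereas C8orf37, a gene of photoreceptor and cilium function, was nearly level at 1.77 and 1.97 (0.10). Both antisense RNAs rest on few fragments, with about 7.64 and 24.2 in DMSO. The counting interval of the FPKM ratio ran from 1.64 to 9.30 for NEBL-AS1 and from 1.498 to 4.121 for C8orf37-AS1.

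The other 3 were higher opposite sense genes that were not. RASSF1-AS1 stood at 4.73 FPKM in DMSO and 8.90 in Indocin (log2 0.79), and RASSF1, a Ras-association scaffold and tumour suppressor often silenced in prostate cancer, at 14.98 and 11.69 (-0.33). TAF1A-AS1 stood at 3.39 and 5.94 (0.66), and TAF1A, a subunit of the factor that recruits RNA polymerase I to ribosomal DNA, at 5.67 and 5.16 (-0.12). PRKAR2A-AS1 stood at 1.79 and 3.25 (0.61), and PRKAR2A, a regulatory subunit of protein kinase A, at 29.3 and 27.9 (-0.07). In these 3 pairs the windows share bases, as the capitals show above for RASSF1-AS1 and TAF1A-AS1, and their annotated exons overlap too. Counting intervals of the FPKM ratio excluded 1 in each of the 3, with lower bounds of 1.49 for RASSF1-AS1, 1.31 for TAF1A-AS1 and 1.254 for PRKAR2A-AS1. All 6 members past 1.5-fold were chosen by their ratios, so intervals above 1 are no separate support for them. Over the 192 members with an annotated length, the interval lay above 1 in 35 and below 1 in 14.

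**Figure D2:**
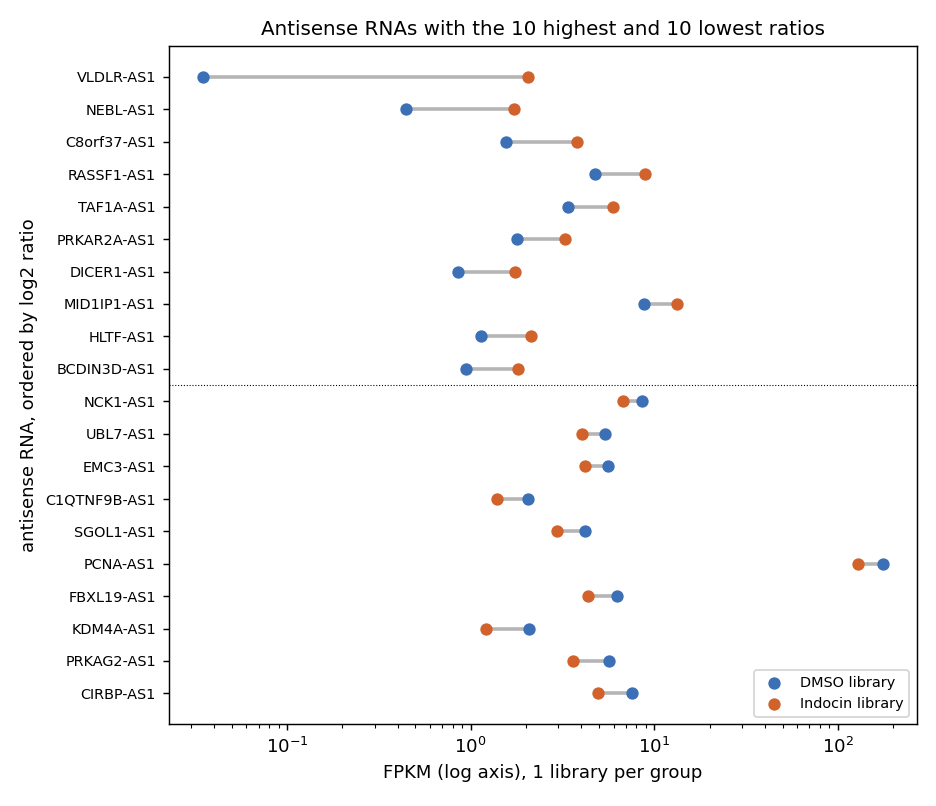
FPKM (log axis) of the 10 members with the highest and the 10 with the lowest log2 ratio, blue for the DMSO library and orange for the Indocin library, 1 library per group and no error bars. The gap is widest for VLDLR-AS1 (0.0347 and 2.06 FPKM), and PCNA-AS1 is the only one of the 20 above 100 FPKM.

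Below the count of 1.5-fold came 4 members that complete the 10 highest. DICER1-AS1 stood at 0.853 and 1.75 FPKM (log2 0.57), opposite DICER1, the nuclease that cuts microRNA precursors, at 6.68 and 5.31 (-0.28). MID1IP1-AS1 stood at 8.78 and 13.3 (0.55), and MID1IP1, which promotes the polymerisation of acetyl-CoA carboxylase, at 78.8 and 115.5 (0.55). HLTF-AS1 (1.15 and 2.14) and BCDIN3D-AS1 (0.945 and 1.82) reached 0.55 and 0.54 beside sense genes at -0.03 and 0.12, and the counting interval of HLTF-AS1 included 1 (0.989 to 4.03). MID1IP1-AS1 and its sense gene thus had equal ratios, and DICER1-AS1 and its sense gene had opposite ones. DICER1-AS1 and BCDIN3D-AS1 also reached the mean limit only through the Indocin library.

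At the low end no member passed 1.5-fold. CIRBP-AS1 stood at 7.58 FPKM in DMSO and 4.93 in Indocin (log2 -0.53), and CIRBP, a cold-inducible RNA-binding protein, at 79.14 and 95.03 (0.26). PRKAG2-AS1 stood at 5.65 and 3.60 (-0.53), beside PRKAG2, a regulatory subunit of the energy-sensing kinase AMPK, at 11.3 in both. KDM4A-AS1 stood at 2.07 and 1.21 (-0.48), and KDM4A, a histone lysine demethylase, at 18.8 and 34.9 (0.86). In CIRBP and KDM4A the antisense RNA was the lower and the sense gene the higher in the Indocin library.

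PCNA-AS1 and SGOL1-AS1 were lower together with cell division genes. PCNA stood at 105.1 and 74.3 FPKM (log2 -0.49) beside -0.43 for its antisense RNA. SGOL1, the shugoshin that protects centromeric cohesion, stood at 6.202 and 4.685 (-0.34), and SGOL1-AS1 at 4.195 and 2.964 (-0.39). TMPO-AS1, at 2.82 and 2.10 (-0.30), lay opposite TMPO, a nuclear lamina protein gene at 64.9 and 50.6 (-0.36). In all 3 pairs both transcripts were lower in the Indocin library by nearly equal ratios. Annotated exons overlap by 679 bases in the SGOL1 pair and 713 in the TMPO pair. PCNA-AS1 was not placed on the gene models, so its overlap is not known. The strand setting of the counting is not given, so reads may have been mixed within these pairs. Whether the transcripts differed separately was not tested.

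The other members of the lowest 10 lay opposite sense genes with smaller differences. FBXL19-AS1 stood at 6.24 and 4.35 FPKM (-0.44), EMC3-AS1 at 5.611 and 4.201 (-0.35), UBL7-AS1 at 5.36 and 4.02 (-0.34), and NCK1-AS1 at 8.62 and 6.79 (-0.30), and their sense genes lay between -0.09 and 0.15. C1QTNF9B-AS1 stood at 2.05 and 1.39 (-0.35) beside C1QTNF9B at 1.627 and 1.251 (-0.22). Counting intervals of the FPKM ratio included 1 for EMC3-AS1, UBL7-AS1, C1QTNF9B-AS1 and KDM4A-AS1.

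As a whole the members leaned to the Indocin side by a small amount. Their median log2 ratio was 0.06 with quartiles of -0.09 and 0.24, and 124 of 199 (62.3%) lay above 0. The 124 include the 12 members that reached the mean limit only through the Indocin library. Over all tested genes the median was -0.03 with quartiles of -0.15 and 0.11, and 44.8% lay above 0. The other genes' median was also higher at lower levels, so ranges of level are compared. Among genes with means of 1 to 2 FPKM the median was 0.09 over 62 members and 0.06 over 1020 other genes. From 2 to 5 FPKM it was 0.11 over 56 members and 0.04 over 1884 others, and from 5 to 10 FPKM 0.07 over 41 and 0.01 over 2099. At 10 FPKM or more it was 0.03 over 40 members and -0.06 over 6759 others. The members' median was the higher in all 4 ranges, by less than 0.1, and the share above 0 was higher in 3 of them but not from 2 to 5 FPKM, where it was 55.4% against 57.4%. The 73 measured intergenic RNAs (LINC symbols) had a median of 0.08 with 64.4% above 0, and the 175 sense genes one of -0.02 with 46.9% above 0.

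**Figure D3:**
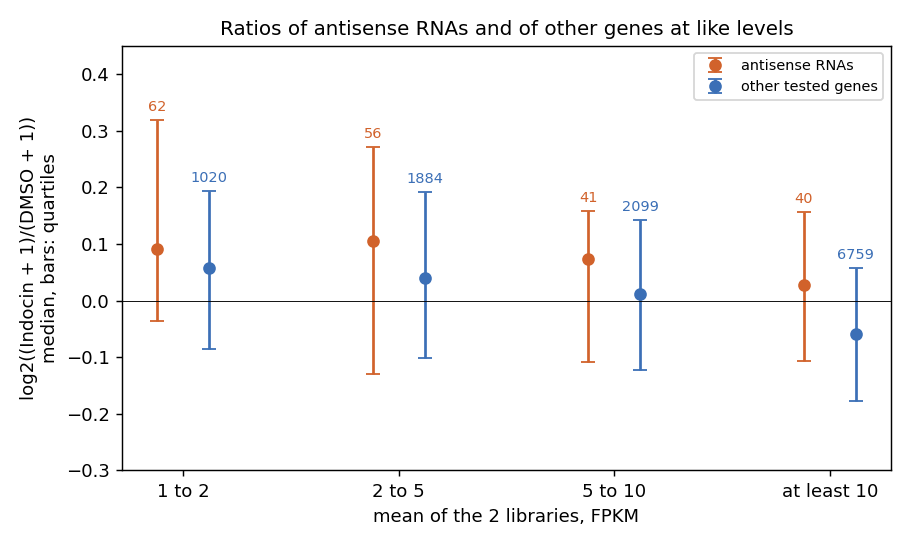
Median log2 ratio with quartiles (bars) of the antisense RNAs (orange) and of the other tested genes (blue) in 4 ranges of mean FPKM, with the number of genes above each bar. The orange medians lie above the blue ones in each range, from 0.03 to 0.11 against -0.06 to 0.06, and the bars overlap throughout.

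The pairs show how far antisense and sense ratios went together. A sense row existed for 195 members and a tested sense gene for 176, of which ZNF32-AS1 and ZNF32-AS2 share 1. HOXC-AS1, HOXB-AS3, RPARP-AS1 and JHDM1D-AS1 had no row under the sense symbol. Over the 176 pairs the antisense and sense ratios had the same sign in 98 and opposite signs in 78. Spearman's rho was 0.15 and Pearson's r 0.21, and without VLDLR-AS1 they were 0.14 and 0.11. All points share both libraries, so this is a description and a weak one. The antisense ratio was the higher in 111 of the 176 pairs, with a median difference over all 176 of 0.09 on the log2 scale. The 176 include members, VLDLR-AS1 and NEBL-AS1 among them, that reached the mean limit only through the Indocin library. For those members the higher antisense value follows from the limit, so the 111 are no result on direction. In 165 pairs neither transcript passed 1.5-fold, in 5 only the antisense RNA did, in 5 only the sense gene, and in 1, VLDLR, both.

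The 5 pairs in which only the sense gene passed 1.5-fold were all higher in the Indocin library on the sense side. Of the 175 tested sense genes 6 were past 1.5-fold higher, VLDLR included, and 0 lower. All tested genes leaned the same way, with 2.19% higher and 0.752% lower. MNX1, a homeobox transcription factor, stood at 4.94 FPKM in DMSO and 11.4 in Indocin (log2 1.07), and MNX1-AS1, which shares 293 of its 300 window bases with it, at 12.6 and 15.5 (0.28). KDM4A stood beside a lower antisense RNA, as given above. ZNF674, a zinc finger gene, stood at 0.941 and 2.32 (0.78) beside ZNF674-AS1 at 9.58 and 10.0 (0.06).
PDCD4, an inhibitor of the translation helicase eIF4A, stood at 24.6 and 40.2 (0.69) beside PDCD4-AS1 at 1.20 and 1.68 (0.29). SDCBP2, the scaffold syntenin-2, stood at 0.677 and 1.57 (0.62) beside SDCBP2-AS1 at 1.57 and 2.35 (0.38). The antisense ratio was above 0 in 4 of these 5 pairs, all but KDM4A, and in 62.3% of all members. That it was the smaller in each follows from how the 5 were chosen.

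In 19 pairs both ratios were at least 0.25 in size, 12 in the same direction and 7 in opposite ones. The same direction upwards held for VLDLR, NEBL, MID1IP1, MNX1, PDCD4, SDCBP2, HLA-F, IDH1 and LGALS8, and downwards for PCNA, SGOL1 and TMPO. IDH1, the cytosolic isocitrate dehydrogenase, stood at 287 FPKM in DMSO and 374 in Indocin, and IDH1-AS1 at 15.6 and 19.8. Opposite directions with the antisense RNA higher held for RASSF1, DICER1, GTSE1, NUP50 and USP27X, and with it lower for CIRBP and KDM4A. GTSE1, which acts on microtubules and p53 in the G2 and S phases, stood at 25.3 and 17.6 (log2 -0.50), and GTSE1-AS1 at 3.05 and 4.84 (0.53). The antisense minus the sense ratio was 1.12 in the RASSF1 pair, the highest of the 176, 1.03 in the GTSE1 pair and -1.34 in the KDM4A pair, the lowest. The 0.25 limit and the pairs HLA-F, IDH1, LGALS8, NUP50 and USP27X were chosen after their values were seen. VLDLR-AS1, NEBL-AS1 and DICER1-AS1 reached the mean limit only through the Indocin library, so the direction of these antisense RNAs is no result.

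**Figure D4:**
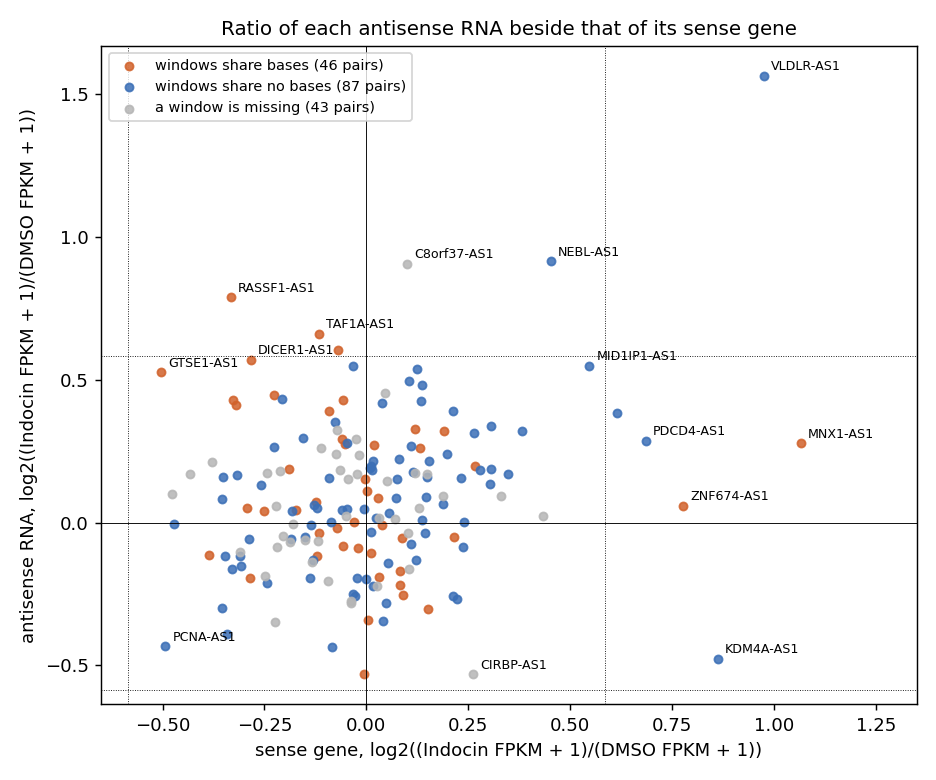
Log2 ratio of each antisense RNA (vertical) against that of its sense gene (horizontal), 176 pairs, orange where the promoter windows share bases, blue where they share none and grey where a window was not found; dotted lines mark 1.5-fold. VLDLR-AS1 stands alone at the upper right (1.57 and 0.98), RASSF1-AS1 and GTSE1-AS1 lie at the upper left, and KDM4A-AS1 at the lower right.

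The pairs were also split by their windows, and the difference between the classes was not tested. In the 46 pairs with a tested sense gene whose windows share bases, 17 had the same sign, with rho -0.30 and r -0.19. In the 87 pairs whose windows share none, 57 had the same sign, with rho 0.38 and r 0.46, or 0.36 and 0.33 without VLDLR-AS1. Median antisense ratios were equal, at 0.07 in both classes, and median sense ratios were -0.04 and 0.02. Among the pairs with both ratios at least 0.25 in size and both windows found, 5 of the 6 in opposite directions share bases, all but KDM4A, and 1 of the 12 in the same direction does, MNX1. The classes rest on the starts that RefSeq lists. By the gene models used below, TMPO-AS1 and SGOL1-AS1 start 42 and 63 bases from their sense genes. Both stand among the 12 as sharing none, so these counts and correlations may depend on the start chosen. The split was not run with other starts. Over all 133 measured pairs with both windows, 34.6% share bases. Restricted to members with a mean of at least 5 FPKM, rho was 0.011 over 14 sharing pairs and 0.29 over 25 others, so the negative value among sharing pairs was not seen at higher levels.

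The pairs were also split by gene models. All 189 members placed on GENCODE 29 lay on the strand opposite to the sense gene. Exons overlapped in 128, only the gene bodies in 19, and neither in 42, of which 41 had starts within 1000 bases. Over the 117 measured pairs with overlapping exons rho was 0.26 with 76 of the same sign, over the 13 with overlap of the bodies only it was -0.07 with 4, and over the 40 without overlap and with close starts it was -0.22 with 15. Over all 130 pairs with starts within 1000 bases, whatever their overlap, rho was 0.09, with 64 of the same sign and 66 of opposite ones. Within the pairs whose windows share bases, rho was -0.39 over 17 with overlapping exons and -0.30 over 29 without. Within those that share none it was 0.40 over 74 and 0.25 over 11. The library kit marks the strand, per the labels, but the strand setting of the counting is not given in the sources used here. Where exons overlap, reads of an antisense RNA and its sense gene therefore may have been mixed in these values, and that part was not tested. For members not placed, PCNA-AS1 among them, the overlap itself is not known.

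Antisense RNAs known from prostate cancer or from other work, listed whatever their value, mostly stood near the same level in both libraries. SOCS2-AS1, known as an androgen-induced RNA, was below the limit at 0.353 FPKM in DMSO and 0.703 in Indocin, beside SOCS2 at 7.39 and 8.41. CTBP1-AS2 stood at 16.7 and 16.1 (log2 -0.05), OIP5-AS1, a cytoplasmic RNA known to bind microRNAs, at 24.8 and 27.2 (0.13), and SLC16A1-AS1 at 3.11 and 3.14 (0.01). LOXL1-AS1 stood at 3.45 and 4.06 (0.19), HIF1A-AS2 at 5.47 and 5.15 (-0.07), DDX11-AS1 at 1.31 and 1.39 (0.05), and GABPB1-AS1 at 4.83 and 6.43 (0.35).
CDKN2B-AS1, also named ANRIL, was nearly silent at 0.104 and 0.0458 FPKM, and GATA3-AS1 was listed at 0 in DMSO and at 0.123 in Indocin. SLC7A11, the cystine transporter, stood at 2.625 and 28.97 FPKM (log2 3.05), whereas SLC7A11-AS1 was listed at 0 and at 0.126, below the limit. The 3 further symbols GATA2-AS1, CEBPB-AS1 and HOXA-AS2 had no row.

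Genes that act on such RNAs were set beside them from fixed lists. The nuclear RNA decay list, which holds the exosome, its helicase and adaptor complexes and the cap-binding proteins, had all 25 genes measured, and 5 lay above 0 and 20 below, with a median of -0.15 and 0 past 1.5-fold. EXOSC4, an exosome core subunit, stood at 85.2 FPKM in DMSO and 61.0 in Indocin (-0.48), EXOSC6 at 49.5 and 35.8 (-0.46), and ZCCHC8, the scaffold of the nuclear exosome targeting complex, at 4.28 and 6.38 (0.48). Of the double-stranded RNA list, with sensors, editors and processing enzymes, 19 of 23 were measured, 4 above 0 and 15 below, with a median of -0.06 and 0 past 1.5-fold. SFPQ, a paraspeckle protein, had a log2 ratio of -0.36, DGCR8, the partner of Drosha, one of -0.35, and DDX58, the sensor RIG-I, one of 0.18. After scaling to a common upper quartile the median of this list became 0.02 and that of all tested genes went from -0.03 to 0.04. The list thus lay below all tested genes on both scales, but that comparison leaves level aside. Most measured genes of both lists had means of at least 10 FPKM, where the other tested genes had a median of -0.06 and 36.0% above 0. The double-stranded RNA list had the same median, with 21.1% above 0.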

How the data were processed

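Directional mRNA libraries were made with the KAPA stranded kit, per the labels' protocols, 1 from DMSO-treated and 1 from Indocin-treated cultures. The authors deposited 1 FPKM value per gene symbol and library. Per the submitters' processing notes, TopHat, StringTie, Cufflinks, Cuffnorm and bcl2fastq were used, with hg19 and GRCh37 as builds. What gene models, filters or strand option were applied is not given in the sources used here. FPKM keep no read totals. Steps between low values gave a relative depth (Indocin over DMSO) of 1.01, with 691 of 1335 low genes within 1% of whole-number ratios, and about 30.5 and 30.1 fragments per FPKM and kilobase, from which fragments and exact 95% intervals (counting error only) were estimated. By this estimate the median member had 102 fragments in DMSO, and 50 members had fewer than 50.

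Ratios are log2((Indocin + 1)/(DMSO + 1)) over genes whose mean reached 1 FPKM, leaving out 2067 short RNA symbols. The summed FPKM was 617510 in DMSO and 583096 in Indocin. With 1 library per group no test was run, so counts and medians are described beside those of all tested genes. The members and lists were chosen with earlier results of these data known. Named members are the 10 highest and 10 lowest ratios, the 10 highest means, members past 1.5-fold or with such a sense gene, the 5 widest antisense-sense differences each way, the 3 symbols on each side of the limit, and 16 fixed symbols; 1 of the 10 highest means is not reported here. The alternatives tried were a pseudocount of 0.1 or 5 FPKM, no filter, minimum means of 2 and 5 FPKM, a common upper quartile, centring on the median of all tested genes, and a 2-fold threshold. Arrangements came from GENCODE 29 and promoter windows from RefSeq (GRCh38.p14), matched by symbol. Scripts used Python 3.11.15, pandas 2.3.3 and scipy 1.17.1 and were tested on simulated data.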

Additional observations from a re-analysis of the deposited data

How the results depend on the processing

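No paired analysis was possible because each group holds 1 library. The count of members past 1.5-fold depended on the pseudocount, the minimum level and the scaling. The 6 members higher in the Indocin library became 22 with a pseudocount of 0.1 FPKM (over all tested genes 420 were then higher and 189 lower), 0 with one of 5 FPKM, 1 with a mean of at least 5 FPKM, 10 with a common upper quartile and 1 at 2-fold. The 0 lower members became 3 with a pseudocount of 0.1 FPKM and 1 with no filter. Pairs in which only the antisense RNA was past 1.5-fold went from 5 to 20 with a pseudocount of 0.1 FPKM, 0 with one of 5 FPKM, 3 with a mean of at least 2 FPKM, 1 with at least 5 FPKM, 8 with a common upper quartile and 1 at 2-fold. The members' median log2 ratio stayed between 0.03 and 0.13 over these settings and the rank correlation over all pairs between 0.08 and 0.17. A common upper quartile moved the medians together, that of all tested genes from -0.03 to 0.04, the members' to 0.13 and the sense genes' from -0.02 to 0.05, and centring moved the sense genes' to 0.01. With that upper quartile the higher calls over all tested genes were 321 against 58 lower, in place of 262 against 90. Alternatives for the promoter windows and the 2 gene lists, and leaving out VLDLR-AS1, were added after the data were seen. Over pairs with shared windows Spearman's rank correlation was 0.011 with a mean of at least 5 FPKM and lay between -0.33 and -0.24 under the others run. With no filter it was not run.

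The limits are those of 1 library per group: no spread between cultures is known, and the counting intervals do not cover it. Of the members, 50 had fewer than 50 estimated fragments in DMSO, and the estimate itself varies between genes, with quartiles of 16.8 and 38.0 fragments per FPKM and kilobase. In VLDLR-AS1 the DMSO level rests on about 1.18 fragments.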

Other observations

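Antisense and opposite-strand symbols of other forms showed like levels. Of 17 symbols ending in -AS with no number, 7 were measured, with a median log2 ratio of 0.07 and 0 past 1.5-fold. TRPM2-AS, opposite the gene of a calcium-permeable channel, stood at 4.07 FPKM in DMSO and 6.58 in Indocin (0.58), and HOXC13-AS at 2.23 and 3.64 (0.52). HOXA11-AS stood at 7.03 and 5.17 (-0.38) and BACE1-AS, known to stabilise the messenger of the beta-secretase, at 1.94 and 1.31 (-0.35). CTBP1-AS, known as an androgen-responsive repressor of CTBP1, stood at 2.36 and 2.83 (0.19). Of these, TRPM2-AS and HOXC13-AS were the higher and HOXA11-AS and BACE1-AS the lower in the Indocin library.

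Of 25 symbols ending in OS (opposite strand), 10 were measured, with a median of 0.02. Of the 10, 1 was past 1.5-fold higher, against 2.19% of all tested genes. It was ARIH2OS, at 2.15 FPKM in DMSO and 4.62 in Indocin (0.84). The 25 were taken by their ending alone, which has another meaning in NRROS and OTOS. Both of these were below the limit. Intronic transcripts (-IT and a number) had 3 of 50 measured and overlapping transcripts (-OT) 0 of 6. ZFAS1, an antisense host of small nucleolar RNAs, stood at 88.2 and 94.3 FPKM (0.09), and HOTAIRM1, from the HOXA cluster, at 8.09 and 6.48 (-0.28). PCA3, the antisense RNA used as a prostate cancer urine marker, was nearly absent from this line, at 0.0333 and 0.0256 FPKM.

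The 7 members opposite zinc finger genes (ZNF symbols) all lay above 0, with a median of 0.16 and a range of 0.01 to 0.48. This group was picked out after its values were seen, and 62.3% of all members lay above 0.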
